A study of Homo sapiens with 3 samples.

Results

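Nucleotide excision repair removes bulky, helix-distorting DNA lesions such as those made by ultraviolet light. Lesions anywhere in the genome are found by XPC and by the UV-DDB complex of DDB1 and DDB2, and lesions that stall RNA polymerase II are found through ERCC6. The transcription factor TFIIH then opens the DNA, XPA and RPA hold the opened site, 2 nucleases cut out the damaged strand, and DNA polymerases and a ligase fill the gap. XPC and DDB2 are known in human cells as genes that the tumour suppressor p53 can switch on. The genes described here are XPC, XPA, DDB1, DDB2, ERCC1, ERCC2, ERCC3, ERCC4, ERCC5 and ERCC6, taken by gene symbol from the arrays with every probe that carries the symbol. They are 10 genes with 15 probes among the 27274 gene names and 34127 probes of the array.

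The study treated HepG2 cells, an established line from a human hepatocellular carcinoma that the study describes as carrying wild-type p53, with etoposide, an inhibitor of DNA topoisomerase II that leaves double-strand breaks. Untreated control cells (0 µM), cells given the low dose of etoposide (10 µM) and cells given the high dose (100 µM) were analysed at 30 h, as a comparison of a dose used for senescence with a dose used for apoptosis. The treated groups differ from the control by the drug alone as far as the labels say, although the study itself heads its array ratios with DMSO, a solvent, as the denominator. All values come from 1 cell line and from 1 array per condition, all on 1 slide, so no difference between conditions could be tested and no p-value is given. RNA came from whole cultures, so fewer cells expressing a gene and less RNA per cell cannot be told apart.

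Signals are the processed intensities of single-colour Agilent spots of 60 bases. Fold changes were taken after dividing each array by its 75th percentile over probes, which was 514, 536 and 432 in control, low dose and high dose cells. A fold change past 1.5 in either direction was counted where the brighter of the compared signals was well above background. The only error that could be measured is the spread between spots of the same probe on 1 array. It was taken from probes spotted 10 times at similar brightness and is given below as the SD of the log2 ratio of 2 arrays. It leaves out the variation between cultures and between RNA preparations. Between 19836 and 20150 probes per array were well above background and no spot was saturated. Albumin and the other hepatocyte-type markers were well above background on every array, 8 of 8, and the fibroblast collagens on none, 0 of 2. Both leukocyte markers were well above background on all 3 arrays, with a summed signal of 430.5 in control, 370.3 in low dose and 697.4 in high dose cells. They moved apart at the low dose, with PTPRC at 257.3, 131.4 and 288.2 (the 1 of its 5 probes bright enough for a fold change) and CD68 at 173.2, 238.9 and 409.2. Of the endothelial markers, PECAM1 was well above background on all arrays, at 472.8, 297.6 and 286.1, and VWF at the high dose alone, with summed signals of 310.08 to 481.758. The part of these signals in the results below was not tested.

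The following sequences show probes of the genes past 1.5-fold higher, and the promoter element among these genes that matched the p53 consensus. Probe sequences are printed 5′ to 3′ as the array files give them, with hg18 coordinates. The XPC probe lies at chr3:14162442-14162501 on the minus strand, and the capitals mark its last 3 bases, which spell a stop codon.
XPC probe: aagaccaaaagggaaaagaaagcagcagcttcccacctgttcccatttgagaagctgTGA
The dimmer DDB2 probe lies at chr11:47195115-47195174 on the plus strand. The brighter DDB2 probe, which stood for the gene in the counts and ranks below, is not printed.
DDB2 probe: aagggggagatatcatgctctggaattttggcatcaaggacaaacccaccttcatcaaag
The ERCC1 probes lie at chr19:50609964-50610023 (brighter) and chr19:50609062-50609121 (dimmer) on the minus strand, and share no position.
ERCC1 brighter probe: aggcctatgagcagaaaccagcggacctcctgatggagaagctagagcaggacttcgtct
ERCC1 dimmer probe: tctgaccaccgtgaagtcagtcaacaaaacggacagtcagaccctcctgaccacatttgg
The DDB2 promoter element lies at chr11:47214975-47215004 on the plus strand of GRCh38.p14, and the capitals mark the p53 decamers, which begin 6 and end 26 bases from the annotated start of transcription with a spacer of 1 base between them.
DDB2 p53 element: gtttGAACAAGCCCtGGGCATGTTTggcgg

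The element was found by scanning RefSeq windows from 250 bases before to 50 bases after each annotated start for the p53 consensus, which is a pair of 10-base motifs separated by 0 to 13 bases, with no mismatch allowed. The consensus reads the same on both strands. Of 35116 windows, 10 held a match, or 0.0285%. The 10 genes have 14 such windows, and 1 of them, at a DDB2 start, held a match. A single decamer was present in 6.63% of all windows and in 1 of the 14 windows of these genes, the same DDB2 window. None of these matches says whether p53 binds there, and the other windows hold no such letters over this length only.

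The damage recognition genes DDB2 and XPC had the highest fold changes of the 10 genes at the low dose. DDB2, which binds ultraviolet photolesions and brings in a ubiquitin ligase, gave a signal of 3327 in control, 14450 in low dose and 6346 in high dose cells at its brighter probe. The signal was highest at the low dose and lowest in the control. Over the control, DDB2 was 4.16-fold higher at 10 µM and 2.27-fold higher at 100 µM, with a spot SD of the log2 ratio of 0.07 for each. The low dose exceeded the high dose by 1.84-fold, which is 12.6 times the spot SD. The brighter DDB2 probe lies at chr11:47217199-47217258 in hg18. The dimmer one, printed above, gave 273.2, 1241 and 655.9 in the same order. Its fold changes were 4.35 at 10 µM and 2.85 at 100 µM, so both probes had the same order of conditions. Between doses the dimmer probe gave 1.52-fold. Among all genes measured, DDB2 ranked 115th of 16659 from the highest fold change at the low dose and 732nd of 16771 at the high dose.

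XPC, which senses unpaired bases opposite a lesion, followed the same order of conditions at a smaller size. Its only probe gave 238.5 in control, 529.2 in low dose and 324.4 in high dose cells. Over the control, XPC was 2.13-fold higher at 10 µM (spot SD 0.09 on the log2 scale) and 1.62-fold higher at 100 µM (spot SD 0.1). After scaling, the low dose exceeded the high dose by 1.32-fold, 4.8 times the spot SD. XPC ranked 468th of 16659 genes at the low dose and 2441st of 16771 at the high dose, where 14.5% of genes had a higher fold change.

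DDB1, the partner of DDB2 and the adaptor of the CUL4 ubiquitin ligases, stayed near the control under the scaling used. Its probe at chr11:60823775-60823834 gave 9028, 9970 and 7056 in control, low dose and high dose cells. The fold changes of DDB1 were 1.06 at 10 µM and 0.929 at 100 µM, within 2 spot SDs of no change in both (1.2 and 1.5 SDs). Over 7 scalings of the arrays the value at 100 µM ran from 0.758 to 0.973. The proteins work as 1 complex, while only the DDB2 transcript of the pair was past 1.5-fold.

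**Figure D1:**
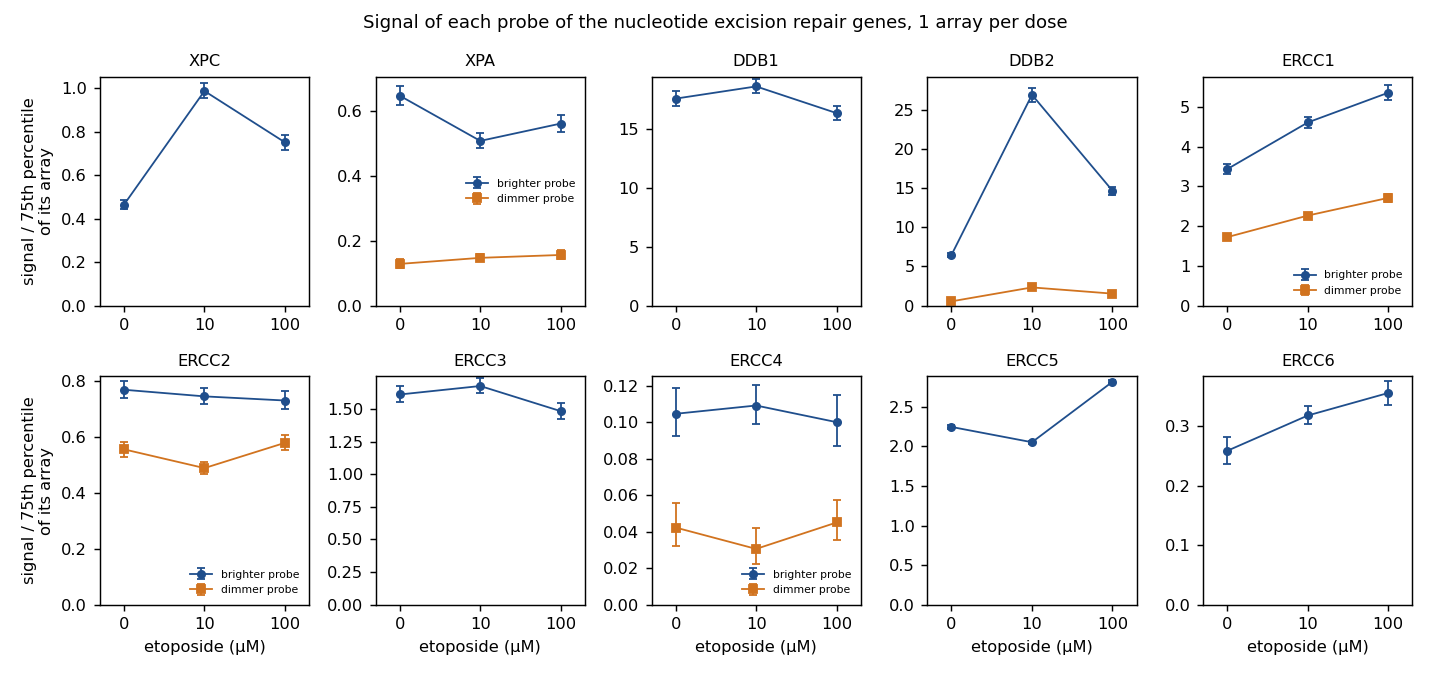
Signal of each probe of the 10 genes, divided by the 75th percentile of its array, against the etoposide dose in µM (1 array per dose, axes from 0). Blue circles are the brighter and orange squares the dimmer probe, bars are the spot-to-spot SD, and the levels of different probes are not comparable. With this scaling, DDB2 and XPC were highest at 10 µM, both ERCC1 probes were highest at 100 µM, and DDB1, ERCC2 and ERCC3 stayed within a narrow band. The order of the doses for ERCC1 changed with the scaling.

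ERCC6, the CSB ATPase that starts repair at stalled RNA polymerase II, was dim. Its probe at chr10:50336812-50336871 gave 132.8, 170.2 and 153.5 in control, low dose and high dose cells. After scaling ERCC6 was at 1.23-fold the control at 10 µM and at 1.37-fold at 100 µM, with spot SDs of 0.14 and 0.15. These ratios are 2.1 and 3.1 times the spot SD under the scaling used and neither reached 1.5-fold. Over 7 scalings the value at 100 µM ran from 1.13 to 1.43. With median scaling its log2 was 0.17, beside the spot SD of 0.15. The low over high dose ratio ran from 0.847 to 1.11, so the order of the doses was not settled.

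XPA, the scaffold that checks the lesion and places the nucleases, was not higher at either dose at its brighter probe. That probe, at chr9:99477334-99477393, gave 332.9, 272.4 and 242.7 in control, low dose and high dose cells, or 0.784 and 0.867 of the control after scaling. The dimmer probe, at chr9:99484412-99484471, carries a non-coding transcript accession and gave 66.03, 78.88 and 67.41. Its fold changes were 1.14 and 1.21, so the XPA probes disagreed in direction, and the dimmer one stayed within 2 spot SDs of no change at both doses. At its brighter probe XPA had the lowest fold change of the 10 genes in both comparisons with the control under the scaling used.

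The TFIIH helicases ERCC2 (XPD) and ERCC3 (XPB) unwind the DNA around the lesion and also serve transcription initiation. Their signals differed little between conditions under the scaling used. ERCC2 gave 394.8, 399.0 and 315.2 in control, low dose and high dose cells at the probe at chr19:50548355-50548414. The other ERCC2 probe, at chr19:50556655-50556714, gave 285.4, 261.7 and 249.9. Fold changes over the control were 0.969 and 0.949 for the brighter and 0.879 and 1.04 for the dimmer ERCC2 probe, low dose first. ERCC3 gave 827.5, 897.7 and 640.3 at chr2:127735283-127735342, with fold changes of 1.04 and 0.92. At the brighter probes all of these ratios were under 2 spot SDs with this scaling. Over 7 scalings the values at the high dose ran from 0.779 to 0.993 for ERCC2 and from 0.753 to 0.959 for ERCC3.

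Of the nuclease genes, ERCC1 was above the control at both doses. ERCC1 is the DNA-binding partner of the ERCC4 (XPF) nuclease, which cuts on the 5′ side of the lesion. Its brighter probe gave 1766, 2471 and 2315 in control, low dose and high dose cells, and the dimmer one 885.2, 1214 and 1171. The fold changes were 1.34 and 1.31 at the low dose and 1.56 and 1.57 at the high dose, for the brighter and dimmer probe. These separate probes, whose sequences are printed above, differed little from each other, with spot SDs of 0.07 to 0.08. The order of the doses was not settled, since the low over high dose ratio of ERCC1 ran from 0.818 to 1.06 over 7 scalings of the arrays. ERCC1 and ERCC2 lie near each other on chromosome 19, with probes 61.6 kb apart in hg18. The fold changes of ERCC2 stayed near 1 under the scaling used.

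ERCC4 was dim. Its brighter probe, at chr16:13953547-13953606, gave 53.83, 58.57 and 43.26, with fold changes of 1.04 and 0.956 and spot SDs of 0.23 and 0.27. Its dimmer probe, at chr16:13949740-13949799, gave 21.77, 16.42 and 19.5 and was not well above background at either dose of etoposide, so no fold change is given. ERCC5 (XPG), which cuts on the 3′ side, was spotted 10 times per array at chr13:102325951-102326010. Its signal was 1153 ± 37.9 in control, 1100 ± 31.8 in low dose and 1215 ± 36.8 in high dose cells (SD over 10 spots of 1 array). Before scaling, the spots ranged from 1084 to 1219, from 1038 to 1146 and from 1169 to 1276. These ranges show the spread of spots on single arrays that differ in level, so they do not compare the conditions. After scaling ERCC5 was at 0.914 of the control at 10 µM and at 1.25-fold the control at 100 µM, and did not reach 1.5-fold in any comparison.

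At the low dose, 2 of the 10 genes (DDB2 and XPC) were past 1.5-fold higher and 0 were lower, while 9.08% of all 16659 genes measured were past 1.5-fold higher and 6.47% lower. At the high dose, 3 of the 10 (DDB2, XPC and ERCC1) were past 1.5-fold higher and 0 lower, against 18.6% and 9.8% of 16771 genes. Both counts use the same control array. Between the doses, 1 gene (DDB2) was past 1.5-fold in favour of the low dose and 0 in favour of the high dose, against 7.53% and 14.3% of 16685 genes. Past 2-fold higher were DDB2 and XPC at the low dose, beside 3.39% of all genes (1.58% lower), and DDB2 at the high dose, beside 6.83% (3.68% lower). Between the doses 0 of the 10 were past 2-fold, beside 3.66% of all genes higher at 10 µM and 3.96% lower. Past 3-fold was DDB2 at the low dose, beside 1.29% of all genes (0.36% lower), and 0 at the high dose (1.87% higher and 1.66% lower) or between the doses (1.89% and 0.845%). The median log2 fold change of the 10 genes was 0.07 at the low dose, 0.13 at the high dose and 0.08 between the doses, beside medians of -0.04, 0.1 and -0.11 over all genes. Under the scaling used, DDB1, ERCC2, ERCC3 and ERCC4, 4 of the 10, were within 2 spot SDs of no change in each comparison with the control. At the high dose this depended on the scaling. With median scaling the log2 fold changes there were -0.395 for DDB1, -0.364 for ERCC2 and -0.409 for ERCC3, beside spot SDs of 0.07, 0.09 and 0.08.

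The choice of scaling set how far the high dose array stood from the others. Of the genes past 1.5-fold at the high dose, 65.5% were higher than in the control under the scaling used, 34.1% with no scaling, 29.9% with scaling to the median, 51.6% after quantile normalization and 44.0% with scaling to 7 spike-in controls. Of those past 1.5-fold between the doses, 34.5% were higher at the low dose, and 76.0%, 70.9%, 50.4% and 65.8% under the same 4 alternatives. The median log2 fold change of all genes at the high dose moved from 0.1 to -0.15 with no scaling and to -0.19 with median scaling. Over 7 scalings DDB2 stayed between 4.11- and 4.35-fold at the low dose and between 1.85- and 2.38-fold at the high dose. XPC stayed between 2.08- and 2.22-fold at the low dose. At the high dose XPC ran from 1.32- to 1.69-fold and ERCC1 from 1.27- to 1.64-fold, and each was past 1.5-fold under 4 of the 7. ERCC5 ran from 1.03- to 1.31-fold at the high dose. Relative to the median of all genes, DDB2, XPC and ERCC1 were higher by 1.09, 0.6 and 0.54 on the log2 scale at the high dose, and by 2.09, 1.13 and 0.46 at the low dose.

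**Figure D2:**
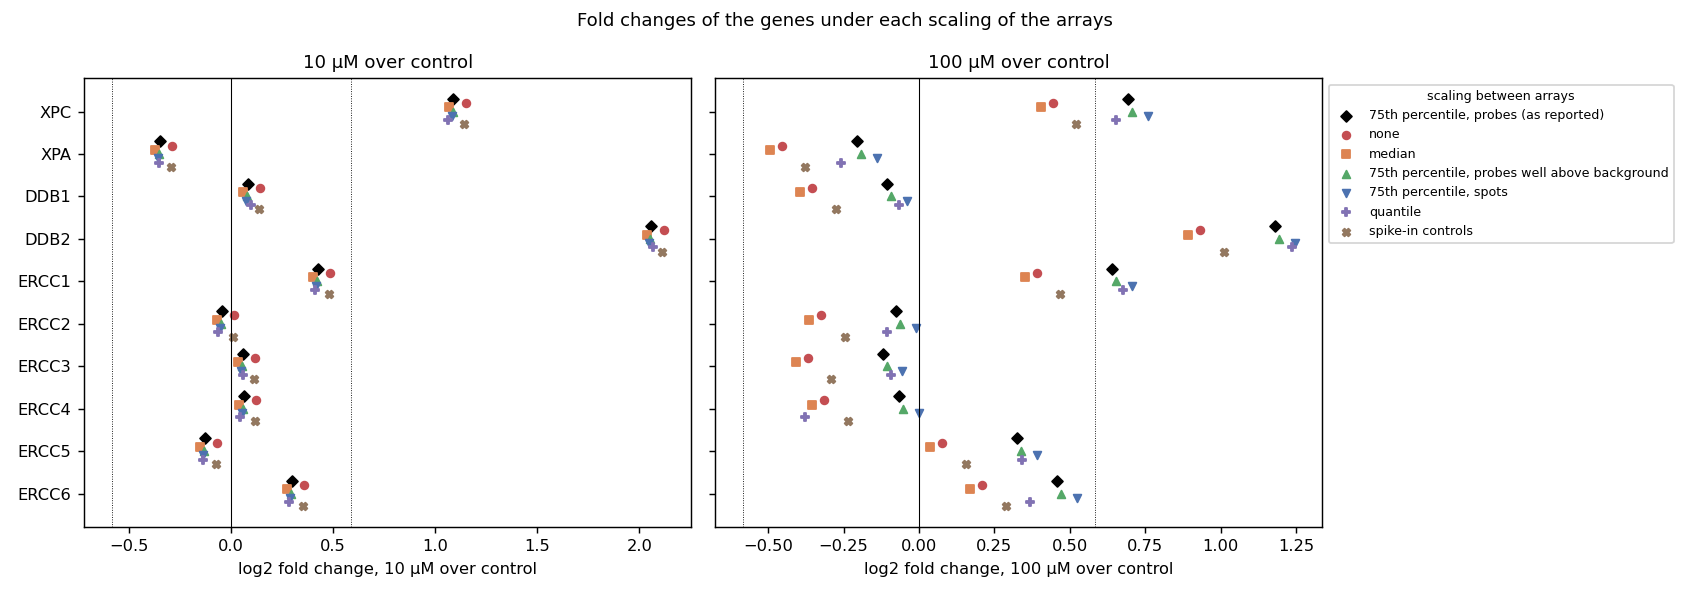
Log2 fold change of the brighter probe of each gene at 10 µM (left) and 100 µM (right) over control under 7 scalings of the arrays, with dotted lines at 1.5-fold. At 100 µM every gene shifts with the scaling, and the points of XPC and ERCC1 lie on both sides of 1.5-fold while those of DDB2 all lie beyond it.

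The other genes of the pathway were counted by step. Of 40 further nucleotide excision repair genes listed by step, 39 were measured, with GTF2H2 not found by name on the array. At the low dose 6 were past 1.5-fold higher and 1 lower, with a median log2 fold change of 0.04, beside 9.08% of all genes higher and 6.47% lower. At the high dose 1 was higher and 14 were lower, with a median of -0.42, beside 18.6% of all genes higher and 9.8% lower. Over the 7 scalings the count of lower genes ran from 12 to 29, the last with median scaling, under which 21.5% of all genes were lower, and the median from -0.71 to -0.35. No test sets these counts against other genes, and the medians of all genes stand above.

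In damage recognition, the 6 other genes stayed under 1.5-fold in every comparison at the brighter probes under the scaling used, while up to 2 were past 1.5-fold lower at the high dose under other scalings. The dimmer CUL4A probe was at 0.64 of the control at the low dose and at 0.653 between the doses, and the dimmer RAD23B probe at 0.66 of the control at the high dose. CUL4B, a scaffold of the ubiquitin ligase that works with UV-DDB, was lowest, at 0.721 of the control at 10 µM and 0.674 at 100 µM. The other CUL4B probe gave 0.973 and 0.976. CETN2, a small calcium-binding partner of XPC, was lowest between the doses (0.836). Among the transcription-coupled genes, TCEA1, the elongation factor that restarts stalled polymerase, had signals of 5769, 3906 and 2596 in control, low dose and high dose cells. TCEA1 was thereby lower at both doses, at 0.649 and 0.535 of the control, and its other probe gave 0.587 and 0.546. Over the 7 scalings the count of lower genes in this step ran from 0 to 1 at the low dose and from 1 to 3 at the high dose, and between the doses 0 to 3 were higher. Between the doses HMGN1 was highest (1.24) and UVSSA, listed as KIAA1530, lowest (0.834). Beside the counts of both steps, 9.08% of all genes were higher and 6.47% lower at 10 µM under the scaling used. At 100 µM the shares were 18.6% and 9.8%, and between the doses 7.53% and 14.3%.

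In TFIIH, 0 of the 9 measured subunits, ERCC2 and ERCC3 among them, was past 1.5-fold in any comparison under the scaling used. The log2 medians were -0.18 at 10 µM and -0.4 at 100 µM. Of all genes, 9.08% were higher and 6.47% lower at 10 µM, and 18.6% and 9.8% at 100 µM. Between the doses the shares were 7.53% and 14.3%. This count depended on the scaling, since 5 of the 9 were past 1.5-fold lower at the high dose with no scaling or median scaling and 3 with spike-in scaling, and 1 was higher between the doses under each of these. CCNH, the cyclin of the TFIIH kinase, was lowest at both doses (0.744 and 0.693 of the control), and GTF2H5, the smallest subunit, was highest at the high dose (1.01). Between the doses GTF2H3 was highest (1.35) and GTF2H4 lowest (0.883).

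RPA and the step of gap filling and ligation held most of the other genes past 1.5-fold. The 3 genes of RPA, the single-strand binding complex, were above the control at 10 µM and below it at 100 µM, not all of them past 1.5-fold. RPA1 gave 2964, 4514 and 1406 in control, low dose and high dose cells. RPA2 gave 793.9, 1325 and 520.9, and RPA3 gave 11430, 15280 and 4704. At the low dose RPA2 was past 1.5-fold higher (1.6), with RPA1 at 1.46 and RPA3 at 1.28. At the high dose RPA1 (0.564 of the control) and RPA3 (0.489) were past 1.5-fold lower, and RPA2 was at 0.78. Between the doses, the 3 genes were 2.05- to 2.62-fold higher at 10 µM at the brighter or only probe. The dimmer RPA2 probe gave 1.5 at 10 µM, 0.971 at 100 µM and 1.55 between the doses. The dimmer RPA1 probe gave 1.13 at 10 µM. It was at least 1.59-fold lower than the control at 100 µM and at least 1.81-fold higher at 10 µM than there.

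Of the 18 genes of gap filling and ligation, 5 were past 1.5-fold higher at the low dose (PCNA, POLE, LIG1, POLD3 and RFC5) and 0 lower, with a median of 0.41. Among all genes 9.08% were higher and 6.47% lower there. At the high dose 11 were past 1.5-fold lower and 1 higher, with a median of -0.65, beside 9.8% of all genes lower and 18.6% higher. Over the 7 scalings the count of lower genes at the high dose ran from 9 to 16, and the share of all genes lower from 8.25% to 21.5%. Many of these genes, PCNA, the clamp loader and the replicative polymerases among them, also copy the genome in S phase. PCNA, the sliding clamp, was at 4.17-fold the control at 10 µM and at 1.37-fold at 100 µM. LIG1, the replicative ligase, gave 2082, 4528 and 1422, so it was 2.08-fold higher at 10 µM and at 0.812 of the control at 100 µM. POLD3, an accessory subunit of DNA polymerase delta, was 1.82-fold higher and then at 0.438 of the control. RFC5, a subunit of the clamp loader, was 1.58-fold higher and then at 0.452.

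Subunits of the clamp loader were below the control at the high dose. RFC3 gave 263.1, 393.8 and 57.3 and was at 0.259 of the control at the high dose, RFC4 at 0.336 and RFC2 at 0.413. RFC1, its large subunit, was at 0.801 at 100 µM, and was 1.56-fold higher at 10 µM than there. Of the polymerase subunits, POLD1 was at 0.49 of the control at the high dose, POLD2 at 0.554, POLE3 at 0.664 and POLE4 at 0.654. POLE2 was not well above background at the high dose and was at least 3.82-fold lower there. POLE was 2.27-fold higher at 10 µM and at least 1.61-fold lower at 100 µM at its brighter probe, whereas its dimmer probe was at least 3.84-fold higher at the high dose, so the direction of POLE there rests on the probe. POLK, a translesion polymerase, was lowest of the step at the low dose (0.756).

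POLD4, the smallest subunit of DNA polymerase delta, was the 1 gene of the step past 1.5-fold higher at the high dose. Its signal was 2586 in control, 3935 in low dose and 5178 in high dose cells. That is 1.46-fold the control at 10 µM and 2.38-fold at 100 µM. Over the 7 scalings the median of the step stayed between -0.94 and -0.58 at the high dose and between 0.38 and 0.47 at the low dose.

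**Figure D3:**
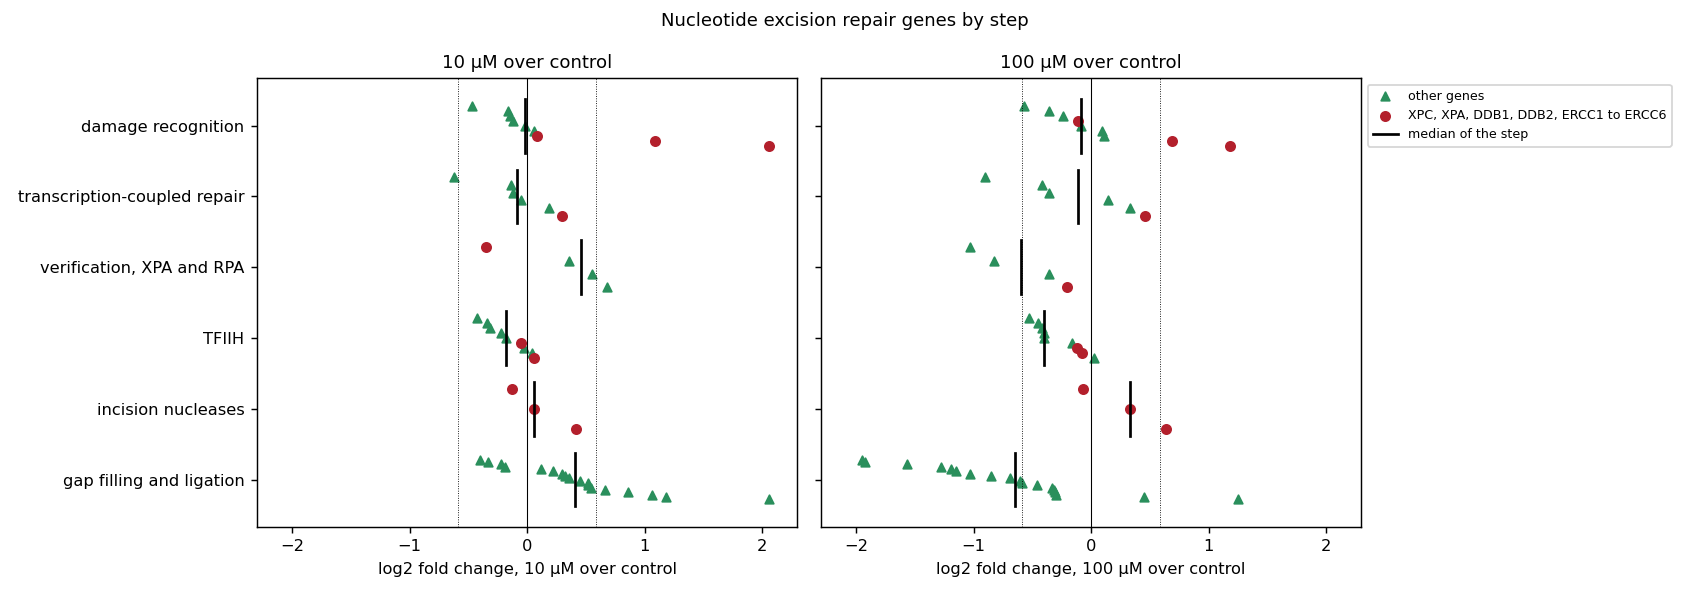
Log2 fold changes of the nucleotide excision repair genes measured, by step of the pathway, at 10 µM (left) and 100 µM (right) over control. Red points are the 10 genes described first, green triangles the other genes, black bars the median of each step with all its genes, and dotted lines 1.5-fold (POLE and POLE2 at 100 µM are drawn at their limits). Gap filling and ligation has a median of 0.41 on the left and -0.65 on the right, and 0 of 9 TFIIH genes crosses a dotted line under the scaling drawn, although up to 5 do at 100 µM under other scalings.

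Genes of other repair pathways give a setting for these values. For homologous recombination, which repairs double-strand breaks from a sister copy, 8 of 19 measured genes were past 1.5-fold higher at the low dose and 1 was lower, and 0 of 18 were higher and 13 lower at the high dose. The medians were 0.4 and -1.04. BLM, a helicase, had the highest fold change at the low dose (2.17) and the lowest at the high dose (0.232). NBN was lowest at the low dose (0.575) and XRCC3 highest at the high dose (1.25, with 0.453 at its dimmer probe). For end joining, 1 of 11 genes was higher at the low dose (APTX, 1.5, with 1.25 and 1.3 at its dimmer probes) and 0 lower, and 0 were higher and 1 lower at the high dose (PRKDC, 0.568), with medians of 0.1 and -0.26. The first count ran from 0 to 1 over the 7 scalings and the last from 1 to 5. For base excision repair, 2 of 17 genes were higher and 1 lower at the low dose, and 1 was higher and 5 were lower at the high dose, with medians of 0.14 and -0.08. Over the scalings 1 to 3 were higher at the low dose and 5 to 8 lower at the high dose, whereas for homologous recombination 8 to 9 were higher at the low dose and 13 to 14 lower at the high dose. Among all genes, 9.08% were higher at the low dose and 9.8% lower at the high dose under the scaling used. FEN1, a flap nuclease, was highest at the low dose (2.18), NEIL1, a glycosylase, highest at the high dose (2.31), NEIL2 lowest at the low dose (0.602) and UNG lowest at the high dose (0.448).

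**Figure D4:**
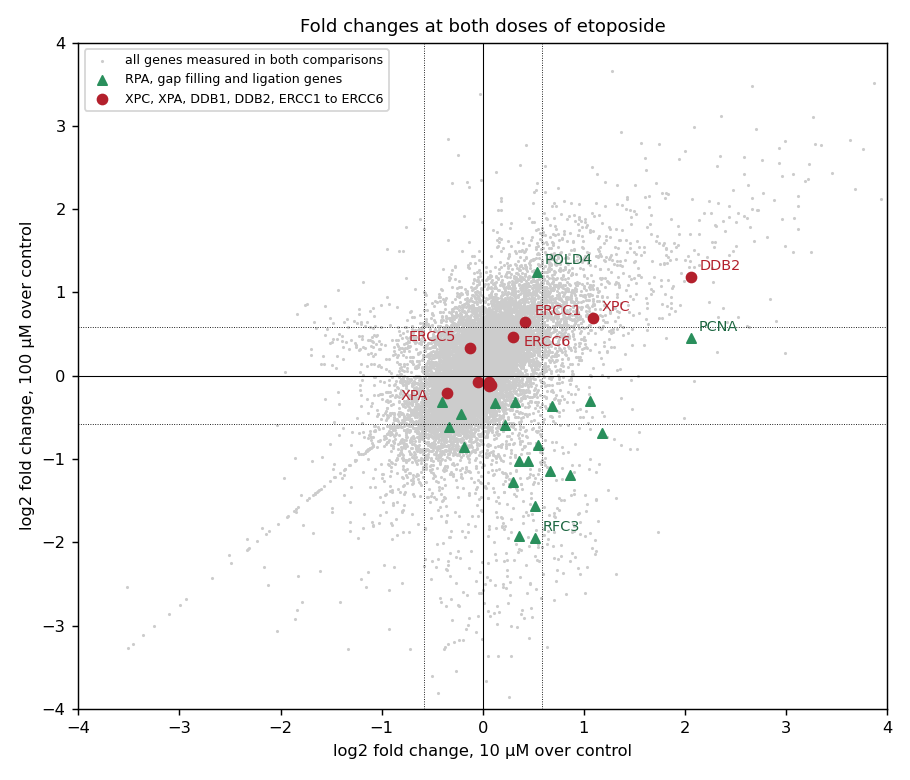
Log2 fold change at 100 µM (vertical axis) against that at 10 µM (horizontal axis), both over the same control array, for 16208 genes (grey; 11 more lie outside the axes), the 10 genes (red) and the RPA, gap filling and ligation genes (green). DDB2 and XPC lie in the upper right, genes set to the detection limit at both doses form a thin diagonal at the lower left, while most of the green triangles lie below 0 on the vertical axis.

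CDKN1A and MDM2, textbook p53 targets, give a scale for DDB2 and XPC. CDKN1A, the p21 inhibitor of cyclin-dependent kinases, gave 169.8, 1407 and 1010 in control, low dose and high dose cells, or 7.94- and 7.07-fold the control. MDM2, which marks p53 for degradation, gave 616.1, 4522 and 1652, or 7.04- and 3.19-fold at its brightest probe. The other MDM2 probes gave 4.88- and 2.77-fold and 3.57- and 2.2-fold, so the fold changes of DDB2 lie within the range of the MDM2 probes. XPC, at 2.13- and 1.62-fold, lay below CDKN1A and below every MDM2 probe at both doses. For MDM2, as for DDB2, the low dose exceeded the high dose under the scaling used (2.21-fold at the brightest probe, 1.76- and 1.62-fold at the others). CDKN1A differed by 1.12-fold between the doses with this scaling, from unscaled signals of 1407 and 1010. All of these ratios between the doses shift with the scaling of the arrays.

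The genes nearest to DDB2 and to XPC were sought among 12045 genes. These were detected above background on each of the 3 arrays by a probe annotated to a RefSeq messenger RNA. They were ranked by the distance between their pairs of log2 fold changes over the shared control. FADS3, a fatty acid desaturase family member, lay nearest to DDB2 (3.97- and 2.21-fold, distance 0.078). PLK3, a stress-responsive kinase, followed (3.88- and 2.35-fold, distance 0.11), and then PLA2G7, a secreted phospholipase (4.12- and 2.46-fold, distance 0.12). None of the 12045 lay nearer than 0.07, the spot SD of the DDB2 ratio at 10 µM alone. That SD leaves out the error at 100 µM and the error of the other gene, so such counts do not show how distinct a pattern is. For XPC the nearest were DDR1, a collagen receptor kinase (2.14- and 1.66-fold), EID2B (2.07- and 1.62-fold) and TM4SF19 (2.09- and 1.66-fold). Their distances were 0.038, 0.038 and 0.044, and 10 genes lay within 0.09, the spot SD of the XPC ratio at 10 µM alone. These rankings rest on 3 arrays.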

How the data were processed

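Total RNA from HepG2 cells was labelled with Cy3 and hybridised to single-colour Agilent arrays of 44495 spots, scanned and quantified by the authors' service with Feature Extraction 10.7.3.1 at default parameters, with 1 array per condition. The deposited values used are processed intensities (background-subtracted, linear scale), and the series value table holds the same intensity for 44495 of 44495 spots on each array within a relative tolerance of 1e-06. Control spots and outlier spots were left out, spots of a probe were averaged on the log2 scale, and the 75th percentile of each array was subtracted. The brightest probe stood for a gene. A dim signal was raised to the lowest signal well above background of its array (19.5, 22.7 and 21.6 in control, low dose and high dose), and such a fold change is a limit ("at least"). Spot SDs came from the 50 probes nearest in brightness among 999 spotted 10 times. Genes named are the 10 genes, the other listed genes past 1.5-fold plus the highest and lowest of each step or list, 2 p53 targets and the 3 nearest patterns. The genes, lists and rules were chosen with earlier results of these data known. Probe coordinates are those of the array annotation (hg18), and exon or UTR positions were not assigned because no annotation of that build was used here. Promoter windows are from RefSeq (GRCh38.p14), which held all 10 genes. Python 3.11.15, pandas 2.3.3, numpy 2.4.6, and R 4.3.3 with limma 3.58.1 (normexp with an offset of 50, as an alternative) were used, and the calculation was checked on simulated arrays. Alternatives were 6 other scalings, normexp, the filter on dim probes, outlier spots kept, the choice of probe, the series table and thresholds of 2- and 3-fold.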

Additional observations from a re-analysis of the deposited data

How the results depend on the processing

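No paired analysis was possible because the labels pair no arrays, with 1 for every condition. The number of arrays limits the precision, and no replicate could be left out. At the low dose, DDB2 and XPC were past 1.5-fold under all scalings, background corrections, filters and probe choices run, and 1 of the 10 genes (DDB2) was past 3-fold. At the high dose, the count of genes past 1.5-fold was 1 (DDB2), not 3, with no scaling, median scaling, spike-in scaling and normexp, 1 at a threshold of 2-fold and 0 at 3-fold. With normexp XPC was at 1.45-fold and ERCC1 at 1.49-fold. Between the doses, the count was 2 (DDB2 and XPC), not 1, with no scaling, median scaling and spike-in scaling, and 0 at 2-fold and at 3-fold. The median log2 fold change of the 10 genes at the high dose, 0.13 as reported, was -0.12 with no scaling and -0.16 with median scaling. It was -0.04 with spike-in scaling and 0.23 with normexp. With the mean over probes and with the dimmest probe ERCC4 had no fold change there, and the median without it was 0.33 for each. Between the doses the median of the 10 genes was 0.08 as reported, 0.39 with no scaling and 0.34 with median scaling. It was 0.00 with the 75th percentile over all spots, 0.30 with spike-in scaling and -0.06 with normexp. Again without ERCC4, the median was -0.11 with the mean over probes and -0.08 with the dimmest probe. A scaling shifts every gene of an array alike apart from quantile normalization, so its effect on these counts is that shift. The mean over probes and the dimmest probe also changed which genes the medians cover, because ERCC4 dropped out at the high dose and between the doses. The cause of the other differences was not tested. Among the 10 genes, the spot SD was largest for ERCC4, whose dimmer probe was not well above background at either dose.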
